A study of Rattus norvegicus with 6 samples.

Results

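The genes described here are 37 genes of the DNA damage response and of DNA repair, taken by symbol from the 17139 genes of a count table of rat nucleus pulposus cells. Every one of the 37 had a row in the table, and all passed the filter on low counts, with 50 to 1744 counts per gene and library. The libraries hold polyadenylated RNA of primary cells from the rat nucleus pulposus, the inner tissue of the intervertebral disc. A bradykinin group (n = 3 libraries) was exposed to 10 µM bradykinin, a vasoactive peptide, and a control group (n = 3 libraries) was left untreated. Rat strain, age and sex, the length of exposure, and whether the replicates are separate animals or cultures are not given in the sources used here. Every p-value is thus relative to the variation among these libraries alone, which may be technical. The treated libraries are titled B2R, a short name of a bradykinin receptor, and were grouped by their treatment label. The series asks how bradykinin acts on senescence and matrix turnover, and DNA damage signalling is a known route into senescence.

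DNA breaks are first sensed by protein complexes that recruit kinases, chiefly Atm, Atr and the DNA-dependent kinase encoded by Prkdc. These kinases phosphorylate the histone variant H2ax around the break, which gathers further repair proteins, and they pass the signal to the checkpoint kinases Chek1 and Chek2. A double-strand break is then rejoined directly by end joining or copied from the sister chromatid by homologous recombination, which works only once DNA has been replicated. Many recombination and Fanconi anemia genes are transcribed mainly in cycling cells, whereas end joining, base excision and nucleotide excision genes are active throughout the cell cycle. RNA levels say nothing of protein amount, of phosphorylation or of DNA damage itself.

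Total counts per library ranged from 12883067 to 15462764. Bradykinin replicate 3 stood apart, with Spearman correlations across genes of 0.960 to 0.963 with the other libraries, against 0.992 to 0.996 among the other 5. The main results below are therefore given with all 6 libraries and with the 5 libraries that remain without bradykinin replicate 3. A fold change given once, without naming a fit, is that of all 6 libraries and may differ in the 5. The tissue label was read against marker genes: of 15 nucleus pulposus and notochord genes, 12 were in the table. No row was found for the others, Krt18, Tbxt and Shh. The 12 summed to 616 to 909 CPM with bradykinin and 621 to 656 in controls, mostly from Acan and Hif1a. Pax1 (82.3 to 117 CPM), Foxf1 (27.03 to 30.85 CPM) and Acan were detected in every library, whereas Krt8 was at 0.788 to 1.76 CPM, Col2a1 at 0 to 0.130 CPM, and Krt19 had 1 count in a single library. Genes of fibroblasts and annulus cells summed to 66548 to 82612 CPM with bradykinin and 70181 to 75214 in controls, with 0 of the 9 tested called in the 5 libraries. Most of that sum came from Col1a1 (means of 42935 CPM with bradykinin and 42683 in controls) and Col1a2 (24507 and 23461). Markers of endothelium summed to 0.456 to 1.53 and 0.608 to 1.299 CPM, and those of macrophages and blood to 0.218 to 0.473 and 0.351 to 0.473 CPM, with Csf1r and Pecam1 at 0 to 0.270 CPM. Other marker genes separated the groups. Smooth muscle and pericyte genes summed to 2904 to 3542 CPM with bradykinin and 3644 to 3782 in controls, and bone genes to 7.92 to 10.2 and 3.31 to 4.77 CPM. The bone sum was mostly 1 gene, Ibsp, at 8.04, 7.19 and 9.44 CPM with bradykinin and 4.03, 4.42 and 3.11 in controls. In the 5 libraries 4 of 7 tested smooth muscle and pericyte genes fell, among them Acta2 (-0.56 ± 0.04, edgeR adjusted p = 1.7e-05), and 2 rose. Of the nucleus pulposus genes Acan (0.95 ± 0.04, edgeR adjusted p = 1.6e-07) and Hif1a rose there, and Car3 (-1.44 ± 0.19, edgeR adjusted p = 0.00103) fell. With all 6 libraries 0 genes of these marker lists passed by edgeR. There DESeq2 called Car3 (DESeq2 adjusted p = 5.3e-05), which was lower, and Ibsp (DESeq2 adjusted p = 0.0088), which was higher. The part of these shifts in the repair genes' levels was not tested. CPM are counts divided by library size in units of 1e6 counts, with TMM scaling (trimmed mean of M-values) between libraries, and they are not divided by gene length, so they compare libraries within a gene and not one gene with another.

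With all 6 libraries, 0 of the 37 repair genes passed the test, against a background of 0% of the 12413 genes tested (edgeR quasi-likelihood test, adjusted p of 0.05 or less). DESeq2 and limma-voom also called 0 of them, and 6 had an unadjusted edgeR p under 0.05, 16.2% of the 37 against 6.84% of all genes tested, all on the higher side: H2ax, Rad54l, Rad51ap1, Fancd2, Ercc1 and Brip1. Log2 fold changes (bradykinin over control) ran from -0.26 to 0.44, with 24 of 37 above 0 (64.9%, against 51.3% of all genes tested). The median was 0.15, beside 0.01 over all genes tested, and it was 0.090 without bradykinin replicate 1. In the 5 libraries without bradykinin replicate 3, 7 members rose, 18.9% of the 37, against 1.95% of the 12536 genes tested, and 0 fell, against 1.15%. Those that rose were H2ax, Mdc1, Brca1, Brip1, Fanca, Fancd2 and Fanci. There 30 of 37 fold changes lay above 0 (81.1%, against 6269 of the 12536 genes tested), with a median of 0.19 beside 0.00 over all genes. In bulk RNA, more cells of a kind and more RNA per cell cannot be told apart.

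**Figure D1:**
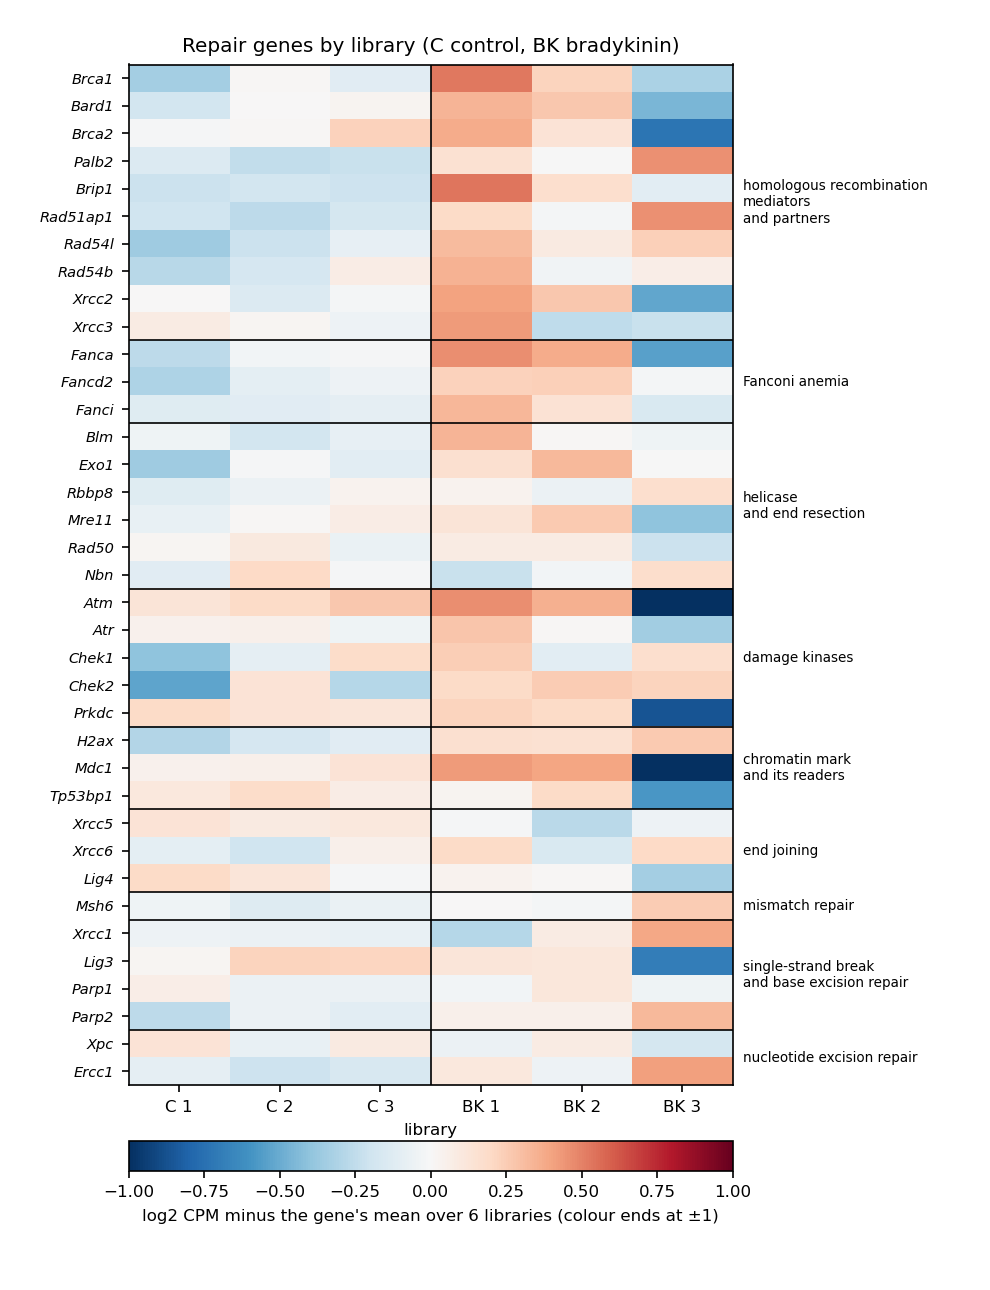
Level of the 37 repair genes (rows, by role) in the 3 control and 3 bradykinin libraries (columns), as log2 CPM minus the gene's mean over the 6 libraries. Bradykinin replicates 1 and 2 are mostly above the controls for recombination and Fanconi anemia genes, while replicate 3 holds both the lowest values (Atm and Mdc1) and high ones (Rad51ap1, Palb2, Ercc1).

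H2ax, which encodes the histone variant that is phosphorylated at breaks, had the smallest p of the 37 genes. H2ax (ENSRNOG00000010386) had levels of 106, 105 and 113 CPM in the bradykinin libraries (replicates 1 to 3) and of 77.1, 84.0 and 87.5 CPM in control replicates 1, 2 and 3. Every bradykinin library lay above every control, replicate 3 included. The log2 fold change was 0.38 ± 0.10 (SE) in 6 libraries (edgeR adjusted p = 0.595) and 0.35 ± 0.06 in 5 libraries (edgeR adjusted p = 0.00868). It was the single member called under each of the 11 alternatives of the fit of 5 libraries, with edgeR, DESeq2 or limma-voom adjusted p from 1.3e-04 to 0.0497. The other members that rose each lost the call under some of these alternatives, in 5 of which a further library was left out. Its reader Mdc1, a scaffold that binds the phosphorylated histone, took another course. Mdc1 (ENSRNOG00000032813) had levels of 68.5 and 67.3 CPM for the first pair of bradykinin libraries, 24.6 CPM for replicate 3, and 52.7, 52.9 and 56.1 in the controls. Replicates 1 and 2 were thus above, and replicate 3 below, every control. Mdc1 rose in the 5 libraries (0.33 ± 0.06, edgeR adjusted p = 0.0109) and was called in 9 of the 11 alternatives, while its value in all 6 was -0.01 ± 0.34. Tp53bp1, which binds chromatin at breaks and favours end joining, was at 73.3, 82.0 and 48.0 CPM with bradykinin and 77.1, 81.4 and 75.8 in controls. Its groups overlapped, and its log2 fold change was -0.21 ± 0.19 in 6 libraries and -0.01 ± 0.06 in 5.

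The 3 members grouped here under Fanconi anemia all rose in the 5 libraries, where 1.95% of all genes tested did. Of 13 further Fanconi anemia genes tested, from the wider list described below, 1 rose. Fancd2 and Fanci encode the pair of proteins that is ubiquitinated at crosslinked DNA and stalled forks, and Fanca a subunit of the core complex behind that ubiquitination. Fancd2 (ENSRNOG00000061085) was at 47.3, 47.7 and 39.8 CPM with bradykinin and 32.5, 37.7 and 38.9 in controls, so that all 3 bradykinin libraries exceeded the controls, replicate 3 narrowly. Its log2 fold change was 0.30 ± 0.12 in 6 libraries (edgeR adjusted p = 0.718) and 0.38 ± 0.08 in 5 (edgeR adjusted p = 0.0231). Fanci (ENSRNOG00000016689) was at 65.7, 57.8 and 46.8 CPM with bradykinin and 47.9, 48.2 and 48.9 in controls. Here replicate 3 fell just below the controls, whose spread was narrow (48.3 ± 0.512 CPM, SD, n = 3). Fanci rose in the 5 libraries by 0.35 ± 0.07 (edgeR adjusted p = 0.0148). Fanca (ENSRNOG00000016706) was at 23.3, 21.9 and 11.5 CPM with bradykinin and 14.0, 16.5 and 16.7 in controls, with replicate 3 the lowest of all 6. It rose in the 5 libraries by 0.52 ± 0.11 (edgeR adjusted p = 0.0185), against 0.26 ± 0.26 in all 6. Fanca and Fanci were called in 8 of the 11 alternatives of this fit and Fancd2 in 7, with adjusted p of up to 0.0921, 0.133 and 0.0928.

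Of the 10 recombination genes, 2 rose in the 5 libraries, where 1.95% of all genes tested did. There all 10 fold changes lay above 0 (median 0.33), against 6269 of the 12536 genes tested. In all 6 libraries 8 of the 10 were above 0 (median 0.29), against 51.3% of all genes tested. Of 29 further recombination genes of the wider list, 2 rose in the 5 libraries. Brca1, a ubiquitin ligase subunit that promotes recombination, was at 32.3, 26.2 and 18.0 CPM with bradykinin and 17.7, 22.5 and 20.6 in controls. Replicates 1 and 2 exceeded the controls and replicate 3 lay among them. Brca1 (ENSRNOG00000020701) rose in the 5 libraries by 0.53 ± 0.12 (edgeR adjusted p = 0.0293), against 0.33 ± 0.22 in all 6. It was called in 7 of the 11 alternatives, with adjusted p of up to 0.213. Brip1, a helicase that binds Brca1, was at 16.6, 12.86 and 10.6 CPM with bradykinin and 9.81, 10.04 and 9.87 in controls. All 3 bradykinin libraries were above the controls, and Brip1 (ENSRNOG00000059997) rose in the 5 libraries by 0.57 ± 0.13 (edgeR adjusted p = 0.0366), against 0.43 ± 0.18 in all 6. It was called in 5 of the 11 alternatives, with adjusted p of up to 0.28, and the call was lost under DESeq2, under library totals and in 4 of the 5 fits without a further library. Bard1, the partner of Brca1, was at 30.2, 28.7 and 17.3 CPM with bradykinin and 20.9, 23.9 and 24.3 in controls, and did not pass in the 5 libraries (0.35 ± 0.09, edgeR adjusted p = 0.0605). Replicate 3 had the lowest Bard1 level of the 6 libraries.

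**Figure D2:**
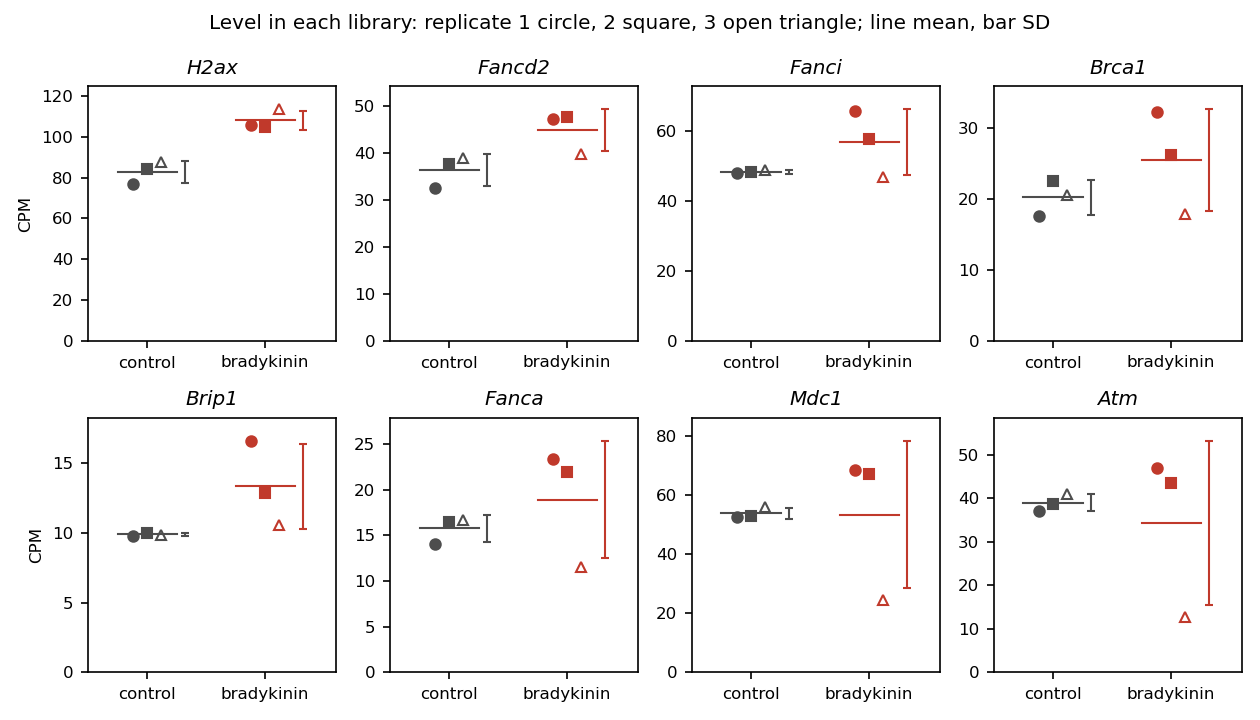
Level in CPM (vertical axis, from 0) of the 7 genes that rose without bradykinin replicate 3, and of Atm, in each control and bradykinin library, with the group mean as a line and the SD as a bar (n = 3). In H2ax the 3 bradykinin libraries lie above the controls, whereas in Fanca, Mdc1 and Atm the open triangle of replicate 3 lies below them.

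Other recombination genes were higher in every bradykinin library without passing the test. Rad54l, a DNA translocase of homologous recombination, was at 10.7, 9.15 and 10.2 CPM with bradykinin and 6.69, 7.37 and 8.11 in controls. Its log2 fold change was nearly the same in both fits, 0.44 ± 0.15 (edgeR adjusted p = 0.710) and 0.43 ± 0.15 (edgeR adjusted p = 0.1699). Rad51ap1, which stimulates strand invasion, was at 11.2, 9.66 and 13.5 CPM with bradykinin and 8.51, 8.14 and 8.65 in controls. For this gene replicate 3 was the highest library, and the log2 fold change was 0.44 ± 0.16 in 6 libraries and 0.30 ± 0.14 in 5. Palb2, which bridges Brca1 and Brca2, was at 5.04, 4.50 and 6.25 CPM with bradykinin and 3.79 to 4.09 in controls. Its log2 fold change was 0.43 ± 0.19 in 6 libraries and 0.28 ± 0.19 in 5. Again replicate 3 was the highest of the 6. Brca2, a mediator of strand exchange, was at 19.9, 16.9 and 9.18 CPM with bradykinin and 15.2, 15.4 and 18.0 in controls, and its fold change turned from -0.09 ± 0.27 to 0.18 ± 0.12 without replicate 3. The translocase gene Rad54b, whose row in the table also carries the identifier of Fsbp, had 0.26 ± 0.18, and the recombination genes Xrcc2 and Xrcc3 had 0.15 ± 0.24 and -0.00 ± 0.23 in 6 libraries.

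The promoters of 5 genes are shown as examples, those of H2ax and of the partner pairs Brca1 and Bard1, and Fancd2 and Fanci. Sequences are from RefSeq on the GRCr8 assembly, 250 bases before to 50 after the annotated start, written 5′ to 3′ on the strand of the gene. Promoters of 30 of the 37 members were in that table. Capitals mark, on either strand, the cores of 3 motifs of cell-cycle promoters. The E2F core was searched for as TTCCCGC, with the further spellings TTGGCGC, then also TTCGCGC, and lastly with TTGCCGC. The cell-cycle homology region, or CHR, was searched for as TTTGAA and the further spelling TTCGAA, and the CCAAT box by those 5 letters.

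H2ax promoter (chr8:53568468-53568767, plus strand): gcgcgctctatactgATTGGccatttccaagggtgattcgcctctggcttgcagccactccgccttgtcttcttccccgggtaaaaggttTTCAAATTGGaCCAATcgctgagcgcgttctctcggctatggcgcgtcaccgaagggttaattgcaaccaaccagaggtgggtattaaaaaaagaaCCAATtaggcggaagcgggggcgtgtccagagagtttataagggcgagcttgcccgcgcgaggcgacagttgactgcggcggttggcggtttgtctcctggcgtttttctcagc
Brca1 promoter (chr10:86977532-86977831, minus strand): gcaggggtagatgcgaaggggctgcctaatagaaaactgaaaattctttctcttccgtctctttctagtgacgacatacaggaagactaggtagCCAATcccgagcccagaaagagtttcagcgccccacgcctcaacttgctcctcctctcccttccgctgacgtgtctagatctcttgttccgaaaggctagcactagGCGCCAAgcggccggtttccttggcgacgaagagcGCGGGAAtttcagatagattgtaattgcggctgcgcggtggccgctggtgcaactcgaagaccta
Bard1 promoter (chr9:80143706-80144005, minus strand): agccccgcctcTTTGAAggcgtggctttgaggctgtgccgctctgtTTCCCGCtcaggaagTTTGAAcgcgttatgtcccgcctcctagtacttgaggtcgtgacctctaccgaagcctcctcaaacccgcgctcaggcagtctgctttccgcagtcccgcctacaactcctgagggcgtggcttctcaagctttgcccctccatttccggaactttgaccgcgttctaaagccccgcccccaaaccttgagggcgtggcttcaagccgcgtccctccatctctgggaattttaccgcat
Fancd2 promoter (chr4:148234458-148234757, plus strand): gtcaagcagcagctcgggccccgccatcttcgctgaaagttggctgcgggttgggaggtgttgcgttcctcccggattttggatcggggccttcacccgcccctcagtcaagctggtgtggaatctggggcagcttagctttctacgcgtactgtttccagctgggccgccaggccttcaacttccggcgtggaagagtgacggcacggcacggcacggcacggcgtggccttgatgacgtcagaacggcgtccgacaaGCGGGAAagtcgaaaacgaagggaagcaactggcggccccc
Fanci promoter (chr1:142736403-142736702, plus strand): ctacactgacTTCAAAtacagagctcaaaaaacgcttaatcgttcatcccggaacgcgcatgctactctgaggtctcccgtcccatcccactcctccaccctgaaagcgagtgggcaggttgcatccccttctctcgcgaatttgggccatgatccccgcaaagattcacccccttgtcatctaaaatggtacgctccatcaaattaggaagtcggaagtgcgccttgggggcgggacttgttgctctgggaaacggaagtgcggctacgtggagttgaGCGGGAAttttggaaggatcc

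In these windows the Brca1 promoter held E2F cores beginning 50 and 15 bases before the start. The Bard1 promoter held one 204 bases before it, and Fancd2 and Fanci held one at base 10 and base 30 of the transcript. H2ax had no E2F core but 4 CCAAT boxes, beginning 235, 155, 149 and 64 bases before the start, and a CHR at 160 that shares a base with a CCAAT box. The examples hold more E2F cores than the genes that rose: 3 of the 6 risen genes with a listed promoter held one, and Fanca, Brip1 and H2ax did not. Among all 30 member promoters, 11 held the E2F core (36.7%), against 9.52% of 33469 rat promoters of the same length. The longer form with a further T in front (TTTCCCGC, TTTGGCGC, TTTCGCGC or TTTGCCGC) was in 5 of 30, those of Fancd2, Msh6, Chek1, Atm and Bard1, against 2.14% of all. In further repair genes and in proliferation genes, lists described below, the E2F core was in 31.5% of 111 and 64.3% of 14 promoters. The longer form was in 13.5% and 57.1% of these. Among the members, the CCAAT box was in 11 of 30 (36.7%, against 37.5% of all) and the CHR in 7 of 30 (23.3%, against 19.7%). A match describes letters only, and whether a factor binds there was not measured.

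None of the 6 resection and helicase genes passed in either fit. Exo1, a nuclease that trims break ends, was at 8.43, 9.44 and 7.48 CPM with bradykinin and 5.84, 7.44 and 6.96 in controls (0.32 ± 0.17). Blm, a helicase that unwinds recombination intermediates, was at 17.7, 14.1 and 13.6 CPM and 13.6, 12.3 and 13.2 in controls (0.22 ± 0.14). Both were higher in every bradykinin library than in every control, by slim margins in replicate 3. The nuclease complex of Mre11, Rad50 and Nbn had log2 fold changes of 0.02 ± 0.18, -0.03 ± 0.12 and -0.05 ± 0.14 in 6 libraries. In 5 libraries these were 0.20 ± 0.08, 0.07 ± 0.06 and -0.15 ± 0.10. Rbbp8, the cofactor of the complex, had 0.10 ± 0.11 in 6 libraries and 0.03 ± 0.08 in 5. In bradykinin replicate 3 Mre11 (22.9 CPM) and Rad50 (60.3 CPM) were the lowest of the 6 libraries, and Nbn was at 35.9 CPM.

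Kinase genes of the damage response gave no call in either fit. Atm, the kinase that answers double-strand breaks, was at 46.9, 43.6 and 12.7 CPM with bradykinin and 37.1, 38.8 and 41.0 in controls. Replicates 1 and 2 were above the controls, and the difference in log2 CPM between replicate 3 and the control mean was -1.61. The log2 fold change of Atm was -0.18 ± 0.41 in 6 libraries and 0.21 ± 0.07 in 5 (edgeR adjusted p = 0.162). Prkdc, the kinase of end joining, was at 48.9, 47.9 and 23.0 CPM and 47.9, 46.0 and 45.6 in controls, again with replicate 3 far below the rest. Atr, the kinase of stalled forks, had -0.02 ± 0.16 and 0.13 ± 0.09 in the 2 fits. The checkpoint kinase gene Chek2 was at 5.99, 6.25 and 6.12 CPM with bradykinin and 3.57, 5.76 and 4.26 in controls, without overlap but with widely spread controls (0.44 ± 0.21, edgeR adjusted p = 0.737). Chek1 was at 20.6, 16.1 and 19.5 CPM and 13.1, 16.3 and 19.7 in controls, and its groups overlapped (0.20 ± 0.18).

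The 3 end joining members had a median of -0.20 in 6 libraries, whereas 8 further end joining genes of the wider list had 6 fold changes above 0 and a median of 0.13. Xrcc5, which encodes the Ku80 subunit that binds break ends, was the single member lower in every bradykinin library than in every control, at 34.3, 28.6 and 33.3 CPM against 38.0, 36.8 and 37.1. It did not pass in 6 libraries (-0.22 ± 0.11, edgeR adjusted p = 0.737) or in 5 (-0.25 ± 0.09, edgeR adjusted p = 0.163). Xrcc6, which encodes its partner Ku70, was at 25.4, 19.9 and 25.5 CPM with bradykinin and 20.7, 19.3 and 23.0 in controls (0.17 ± 0.14), with overlap. The log2 ratio of Xrcc6 to Xrcc5 counts, which needs no scaling between libraries, was -0.43, -0.52 and -0.38 with bradykinin and -0.88, -0.93 and -0.69 in controls, without overlap. The difference in log2 ratio of 0.39 gave a two-sided exact permutation p of 0.1, the smallest that 3 against 3 libraries allow, and 0.8 after Benjamini-Hochberg adjustment over 8 such pairs. Those pairs were chosen after the levels had been seen. Lig4, the ligase of end joining, was at 34.9, 34.4 and 26.9 CPM with bradykinin and 39.0, 37.1 and 33.9 in controls, with overlap (-0.20 ± 0.13).

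Genes of excision and mismatch repair gave no call in either fit. Parp1, the main sensor of strand breaks, was at 79.9, 88.1 and 79.1 CPM with bradykinin and 85.1, 78.0 and 77.9 in controls (0.04 ± 0.10). Parp2, its relative, was at 25.8, 25.8 and 31.2 CPM and 20.7, 23.9 and 23.1 in controls, without overlap (0.29 ± 0.13, edgeR adjusted p = 0.733). Xrcc1 and Lig3 encode a scaffold and a ligase that act as a complex, and replicate 3 moved them apart. Xrcc1 was at 19.6, 25.4 and 31.4 CPM with bradykinin and 22.8 to 23.2 in controls, whereas Lig3 was at 81.5, 81.3 and 46.4 CPM and 76.1 to 87.5 in controls. Their fold changes were 0.15 ± 0.17 and -0.26 ± 0.21 in 6 libraries and -0.02 ± 0.11 and -0.04 ± 0.07 in 5. Ercc1, a subunit of a nuclease of nucleotide excision repair, was at 57.1, 51.4 and 70.8 CPM with bradykinin and 50.003, 46.1 and 47.5 in controls. It was higher in every bradykinin library (0.32 ± 0.13), and the value was 0.18 ± 0.07 without replicate 3, its highest library. Xpc, which recognises distorted DNA, had -0.10 ± 0.12 in 6 libraries. Msh6, a mismatch recognition subunit, was at 46.7, 46.0 and 55.4 CPM with bradykinin and 42.5 to 45.3 in controls. Its log2 fold change was 0.16 ± 0.11 in 6 libraries and 0.07 ± 0.07 in 5.

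Counted without any test, 12 of the 37 genes were higher in every bradykinin library than in every control (32.4%, against 8.84% of all genes tested). By the same count 1 was lower throughout (2.70%, against 8.71%). The 12 were H2ax, Fancd2, Brip1, Rad54l, Rad51ap1, Palb2, Exo1, Blm, Chek2, Parp2, Ercc1 and Msh6. They include 3 of the 7 genes called in the 5 libraries, H2ax, Fancd2 and Brip1.

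**Figure D3:**
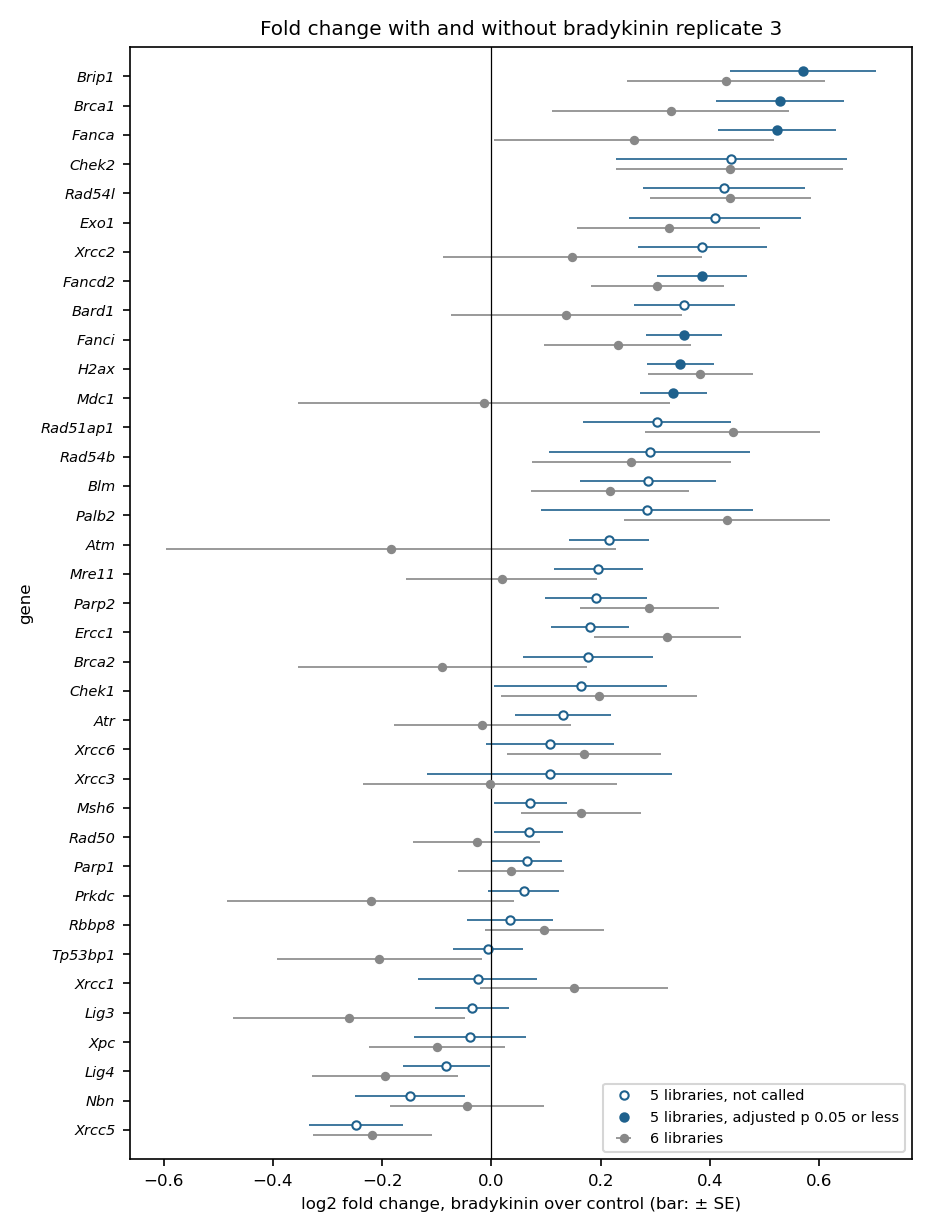
Log2 fold change (bradykinin over control, ± SE) of the 37 repair genes in all 6 libraries (grey) and in the 5 without bradykinin replicate 3 (blue, filled where the edgeR adjusted p is 0.05 or less). The 7 filled points lie between 0.33 and 0.57, and the grey bars of Atm and Mdc1 are the widest.

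Bradykinin replicate 3, which stood apart across all genes, differed from replicates 1 and 2 in both directions among the members. It was below replicates 1 and 2 for 21 of the 37 genes, above both for 10 and between them for 6. For 8 genes replicates 1 and 2 were above every control while replicate 3 was below every control. The shares of all tested genes with these patterns were not counted, so these counts describe the members only. The largest shortfalls against the mean of replicates 1 and 2, in log2 CPM, were in Atm (-1.82), Mdc1 (-1.46) and Prkdc (-1.07), and the largest excesses in Xrcc1 (0.49), Ercc1 (0.38) and Palb2 (0.38). The shortfall went with the genomic span of the gene, introns included. Transcript lengths were not available, so the length of the RNA itself was not compared. Across the 37 genes, Spearman's rho between gene span in the GRCr8 annotation and this difference was -0.44, and across 11484 tested genes with a span it was -0.50. These points come from the same 3 libraries and are a description, and the part of gene length, RNA quality or treatment in it was not tested. Several members lay outside this pattern with span. Mdc1 and Lig3 had short spans (16465 and 23335 bases) and low values in replicate 3. Xrcc5 (88787 bases, 0.09) and Rbbp8 (65456 bases, 0.18) had long spans and differences above 0, and Brip1 (126049 bases) was at -0.46.

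**Figure D4:**
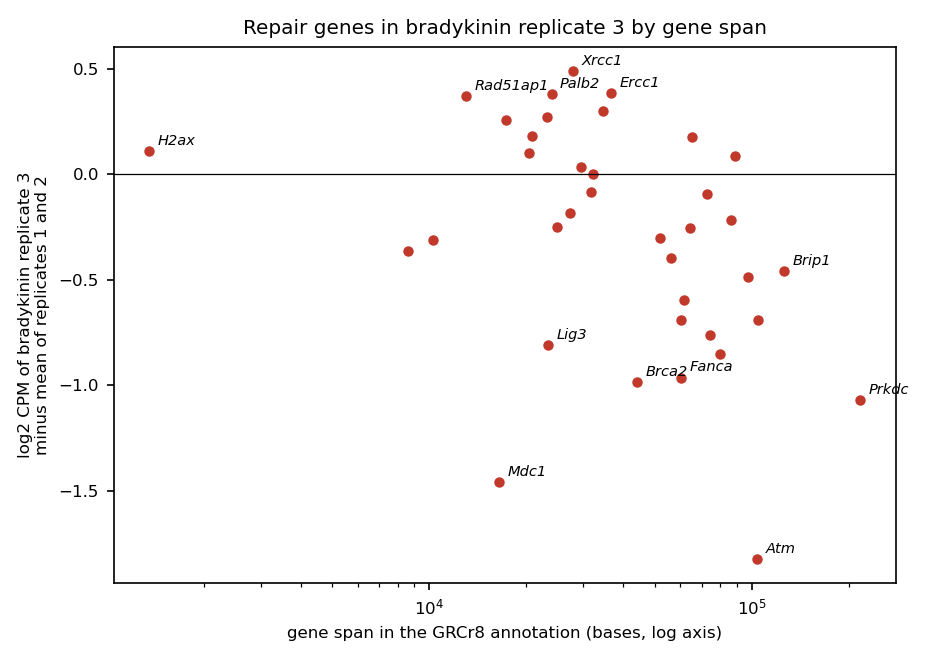
Difference in log2 CPM between bradykinin replicate 3 and the mean of bradykinin replicates 1 and 2 (vertical axis) against gene span in bases (log axis) for the 37 repair genes. The long genes Atm (-1.82) and Prkdc (-1.07) are among the lowest and several shorter ones lie above 0. Mdc1 (-1.46) is low at a short span, and the long gene Brip1 is at -0.46.

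Of 122 further repair genes listed, 120 had a row and 118 were tested in 6 libraries, where 0 passed by edgeR, 12 had an unadjusted p under 0.05 (10.2%, against 6.84% of all genes), and limma-voom called 0. DESeq2 called 1. The median log2 fold change was 0.12, with 83 of 118 above 0 (70.3%, against 51.3% of all genes). In the 5 libraries 6 of 119 rose (5.04%, against 1.95% of all genes) and 0 fell. Among those that rose were Ube2t, Lig1, Recql4 and Wee1. Ube2t, the ubiquitin-conjugating enzyme of the Fanconi anemia pathway, was at 12.1, 12.4 and 16.5 CPM with bradykinin and 7.40, 9.20 and 7.98 in controls. It rose in the 5 libraries by 0.58 ± 0.14, as did Lig1, the replicative DNA ligase, by 0.33 ± 0.06.

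On the lower side of the wider set stood Hus1, a subunit of the checkpoint clamp, at 9.30, 11.9 and 8.46 CPM with bradykinin and 14.3, 12.92 and 13.5 in controls. It did not pass in 6 libraries (-0.46 ± 0.16, edgeR adjusted p = 0.714). The nucleotide excision genes Ercc6 and Ercc5 had -0.27 ± 0.13 and -0.25 ± 0.15. Of the 17 nucleotide excision genes of this set, 11 had fold changes below 0, whereas 23 of 29 recombination genes and 11 of 13 Fanconi anemia genes had fold changes above 0. Clspn and Topbp1, which help Atr activate Chek1, had 0.11 ± 0.14 and 0.11 ± 0.11, and the damage-recognition gene Xpa had 0.13 ± 0.28.

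In a list of 20 proliferation genes, 0 passed in 6 libraries by edgeR or limma-voom and 1 by DESeq2. An unadjusted edgeR p under 0.05 was found for 14 (70%, against 6.84% of all genes). All 20 had fold changes above 0 in both fits (medians 0.31 and 0.28). In the 5 libraries 10 rose (50%, against 1.95% of all genes) and 0 fell. Higher in every bradykinin library than in every control were 17 of the 20 (85%, against 8.84% of all genes). Mki67, a marker of cycling cells named after its value was seen, was not among these 17. It was at 539, 445 and 230 CPM with bradykinin and 349, 423 and 433 in controls, with replicate 3 below every control. The fold change of Mki67 in 6 libraries, 0.01, was the lowest of the 20. The part of proliferation in the repair genes' levels was not tested. By library, the median deviation of these genes from their mean in log2 CPM came to 0.20, 0.06 and 0.20 for the bradykinin libraries (replicates 1 to 3) and -0.21, -0.14 and -0.08 for controls. The 37 repair genes gave 0.20, 0.09 and -0.05 with bradykinin and -0.09, -0.06 and -0.04 in controls. In replicates 1 and 2 both medians were above those of the controls. In replicate 3 the proliferation median was high and that of the 37 repair genes was within the range of the controls. The wider repair list gave 0.05, 0.04 and 0.06 with bradykinin and -0.07, -0.04 and -0.03 in controls, with replicate 3 highest. The longest proliferation gene, Bub1, spans 31397 bases, whereas Prkdc among the 37 spans 217548. The part of gene span in these medians was not tested.

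**Figure D5:**
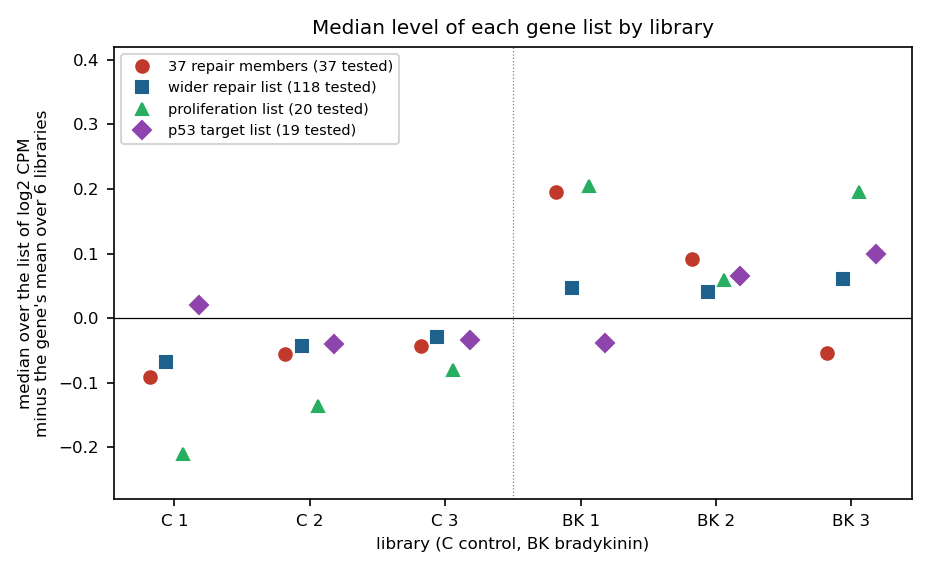
Median over each gene list of log2 CPM minus the gene's mean over the 6 libraries, by library, for the 37 repair genes, the wider repair list, the proliferation list and the p53 target list. The proliferation list and the wider repair list are above 0 in all 3 bradykinin libraries and below 0 in all controls. In bradykinin replicate 3 the 37 repair genes are at -0.05 and the wider repair list is at 0.06.

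Targets of p53, the transcription factor that Atm and Chek2 activate, showed no common shift. Of 19 listed targets, 0 passed in 6 libraries by edgeR, DESeq2 or limma-voom, and the median log2 fold change was 0.06. An unadjusted edgeR p under 0.05 was found for 1 (5.26%, against 6.84% of all genes). Higher in every bradykinin library than in every control were 3 (15.8%, against 8.84% of all genes), and 2 were lower throughout, against 8.71%. In the 5 libraries 0 rose, against 1.95% of all genes, and 1 fell, against 1.15%. The gene that fell was Gadd45a (-0.44 ± 0.07, edgeR adjusted p = 0.00275), a stress-induced gene named after its value was seen. Gadd45a was at 206, 244 and 285 CPM with bradykinin and 321, 300.2 and 293 in controls, lower in every bradykinin library. Its value in all 6 was -0.32 ± 0.13. Cdkn1a, which encodes the cell cycle inhibitor p21, was at 33.2, 36.2 and 37.7 CPM with bradykinin and 32.1, 29.7 and 30.0 in controls, above every control but not past the test (0.22 ± 0.10). Mdm2, the ubiquitin ligase that limits p53, was at 51.2, 57.5 and 64.2 CPM and 54.2, 49.98 and 45.3 in controls, with overlap (0.21 ± 0.12).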

How the data were processed

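Polyadenylated RNA of 6 libraries was sequenced, 3 of bradykinin-treated and 3 of untreated cells. The submitters' processing notes name Rnor_6.0 as the build. They list HISAT2 2.2.1, fastp 0.23.2, SAMtools, Bowtie2 2.4.5, DESeq2 1.34.0 and RSEM 1.3.3, without saying which step each was used for. The values the authors deposited are whole-number counts per Ensembl gene. The sources used here do not say how estimates from RSEM, which divides reads among similar genes, became whole. The labels do not state a stranded kit, so overlapping antisense genes cannot be told apart.

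Symbols came from the table's Entrez identifiers through RefSeq (GRCr8), which named 15073 of 17139 genes. Genes were kept by filterByExpr, scaled by TMM and tested across all genes by edgeR 4.0.16 in R 4.3.3 (quasi-likelihood F test, two-sided, Benjamini-Hochberg adjustment). The threshold for a call was an adjusted p of 0.05. SE is the log2 fold change divided by the root of F. Log2 CPM used a prior count of 2. The procedure was tested on simulated counts. Alternatives were RLE factors, library totals, DESeq2 1.42.0, limma-voom 3.58.1, other filters, a replicate block, and each library left out. Those of the fit of 5 libraries were added after the data had been seen.

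The members and lists were chosen with earlier results of these data known. Named in full were the members with the smallest p on each side and those called in any fit, and every other member by its values. From the wider list, fixed genes and the 3 with the smallest p on each side were to be named, and some of these are not reported here.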

Additional observations from a re-analysis of the deposited data

How the results depend on the processing

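With all 6 libraries, RLE factors, library totals, limma-voom and both other filters left 0 genes called, and DESeq2 called 44, of which 0 were members and 1 was in the wider list. Leaving out each library gave 0 to 388 genes, 0 to 7 members, 0 to 6 wider genes, wider medians of 0.093 to 0.149 and member medians of 0.090 to 0.19. The highest counts came without bradykinin replicate 3. Samples sharing a number did not deviate together (r of -0.09, -0.02 and -0.05), and a fit with the replicate block called 0 members and 0 genes. Mre11 was at -0.012 under limma-voom and at -0.0040 with the replicate block. Fold changes that changed sign when a library was left out ranged from -0.0046 to 0.35 (Bard1), -0.32 to 0.18 (Brca2), -0.028 to 0.39 (Xrcc2), -0.26 to 0.11 (Xrcc3), -0.12 to 0.20 (Mre11), -0.079 to 0.068 (Rad50), -0.15 to 0.047 (Nbn), -0.47 to 0.21 (Atm), -0.17 to 0.13 (Atr), -0.39 to 0.059 (Prkdc), -0.23 to 0.33 (Mdc1), -0.025 to 0.31 (Xrcc1), -0.018 to 0.075 (Parp1), -0.0079 to 0.23 (Clspn) and -0.12 to 0.31 (Xpa). None of these was called with 6 libraries.

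In the 5 libraries, with no filter 681 genes, 8 members and 10 wider genes were called, and DESeq2 called 3 wider genes. Leaving out a further library gave 138 to 333 genes, 1 to 6 members and 1 to 3 wider genes. The count of members was 2 without bradykinin replicate 1, 6 without bradykinin replicate 2, and 1, 1 and 5 without control replicates 1, 2 and 3. The cause was not tested. Where 1 bradykinin library remained, it was assumed to vary like the controls.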
